A study of Mus musculus with 6 samples.

Results

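Heat shock protein and DNAJ genes were compared between wild-type (WT) and rd10 mouse retina by bulk RNA-seq. The set comprised every gene of the count table whose symbol starts with Hspa, Hspb, Hspd, Hspe, Hsph, Hsp90 or Dnaj, except for 1 Hspa gene that the selection leaves out and that is not analysed here. It held 73 of the 24062 genes of the table, of which 61 passed the filter on low counts, among 13905 genes that passed it in all. WT retinas came from C57Bl6/J mice. The rd10 retinas came from mice labelled with the same strain that carry the rd10 allele, a missense change in Pde6b, the gene of the beta subunit of rod phosphodiesterase. All mice were 30 days old, and each group had 3 samples of 2 frozen retinas each. Pooling retinas hides differences between eyes. Nothing in the labels ties a sample to its own animal, and the p-values therefore speak only of the spread among these samples, which may be technical.

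Heat shock proteins bind unfolded or partly folded proteins and help them reach or regain their shape. Hsp70 proteins do this in a cycle of ATP hydrolysis that J-domain (DNAJ) proteins start and nucleotide exchange factors, such as the Hsp110 proteins, complete, and Hsp90 takes over many clients at a late stage of folding. Some members are made at all times, while others are switched on by heat shock factors when unfolded protein accumulates. Photoreceptors make and renew large amounts of membrane protein, and rod phosphodiesterase itself depends on a dedicated chaperone for its assembly.

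The WT libraries held 13573035 to 15818918 counts and the rd10 libraries 10923556 to 12171088. All 23 rod marker genes were lower in rd10, and their summed share of counts was 11.5% to 13% in WT and 2.82% to 4.05% in rd10. Müller glia markers took 0.827% to 0.889% in WT and 1.5% to 1.81% in rd10, and microglia markers 0.0137% to 0.0144% and 0.0482% to 0.0605%. All 16 reactive glia markers were higher, with a share of 0.0457% to 0.0595% in WT and 0.26% to 0.308% in rd10. Markers of inner neurons were detected in every library and took a larger share in rd10, for bipolar cells 0.338% to 0.357% against 0.232% to 0.252%. In whole tissue, fewer cells of a type and less RNA per cell cannot be told apart, and the part of these shifts in the results below was not tested. Libraries WT-1 and Rd10-4 stood apart in base composition, and WT-23 stood apart in the opposite direction. In WT-1 and Rd10-4 the deviation of genes from the mean over libraries rose with transcript GC content. The Spearman coefficient across genes was 0.579 and 0.556 there, -0.609 in WT-23 and -0.276 to -0.103 in the other libraries. Library Rd10-5 had a summed level of immediate early genes of 492 CPM, against 83.9 to 185 in the other libraries. CPM here means counts per 1000000 counts of the library, with the library size multiplied by its TMM scaling factor.

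In rd10 retina 7 members were lower and none was higher (edgeR quasi-likelihood test, Benjamini-Hochberg adjusted p under 0.05). The members that fell were the stress-inducible Hsp70 pair Hspa1a and Hspa1b, the inducible Hsp90 gene Hsp90aa1, the Hsp70 gene Hspa14, and the DNAJ genes Dnaja4, Dnajc18 and Dnajc28. They were 11.5% of the members tested, while 7.32% of all genes tested were lower and 7.12% were higher. At an unadjusted p under 0.05 there were 17 members, 27.9% of those tested against 30.1% of all genes, and DESeq2 called 1 member higher and 8 lower, with 8.94% and 8.59% of all genes. The log2 fold change was below 0 in 44 of the 61 members (72.1%), against 53.8% of all genes, and its median was -0.15 over the members and -0.04 over all genes. Chaperone partner genes outside the set, described further below, leaned the same way, with 48 of the 64 tested below 0. The groups did not overlap for 4 members that were higher and 16 that were lower in rd10, which is 32.8% of the members against 35.7% of all genes.

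Direction over the whole set depended on the scaling of the libraries. Scaling by total counts alone moved the median of all genes by 0.24 on the log2 scale and left the median of the members at 0.09, with 6 members called higher and 3 lower, where 17.8% and 4.11% of all genes were called. Scaling to the summed counts of bipolar, amacrine and ganglion cell markers moved the median of all genes by -0.26 and put that of the members at -0.42, with 19 members called lower and none higher, where 20.9% and 4.58% of all genes were called. Under each of these scalings the members shifted about as far as all genes did. Hspa1a, Hspa1b and Dnajc28 were called lower under both.

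**Figure D1:**
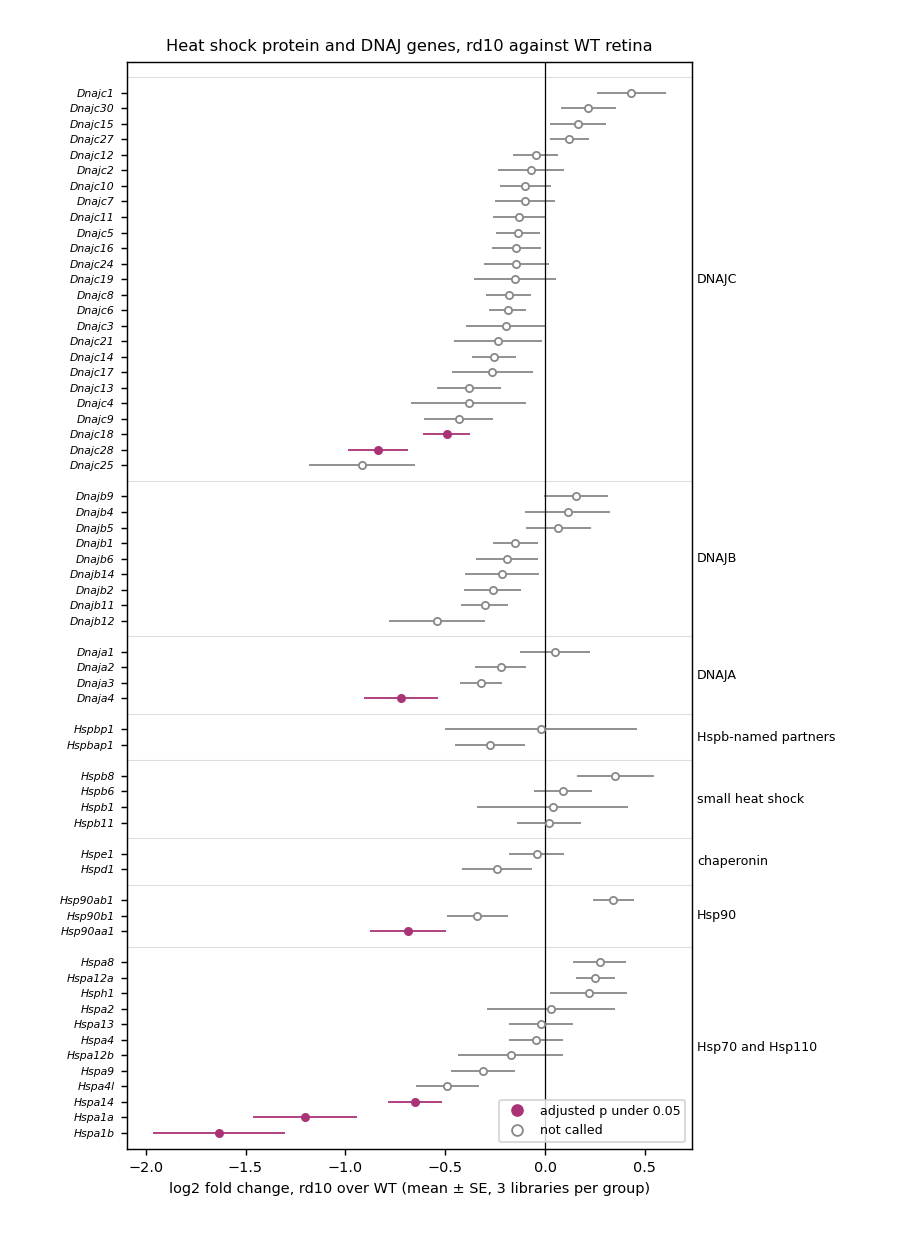
Log2 fold change of rd10 over WT for the 61 members tested, by family, with the standard error from the edgeR fit over 3 libraries per group. The 7 filled points are the members called at an adjusted p under 0.05, and all of them lie to the left of 0.

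The Hsp70 and Hsp110 family had 12 tested members, of which 3 fell and none rose. Over all genes tested, 7.32% were lower and 7.12% were higher. The median log2 fold change of the family was -0.11. The largest falls among the 61 members tested were those of Hspa1b and Hspa1a, near-identical genes that encode the stress-inducible cytosolic Hsp70. They are neighbours on chromosome 17 at chr17:34956436-34959238 and chr17:34969190-34972156 (mm10, minus strand). The first 2000 bases of their transcripts are 99.55% identical. How reads that fit both were divided between them, or whether such reads were counted at all, is uncertain. The falls of the pair may therefore not be separate measurements. Their promoters are shown because the pair fell together and the sequences are almost the same. The 150 bases before the RefSeq start site (GRCm38.p6, minus strand, chr17:34972157-34972306 for Hspa1a and chr17:34959239-34959388 for Hspa1b) are printed below, with capitals marking a match to GAANNTTC, a pair of inverted repeats of the heat shock element to which heat shock factors bind.
Hspa1a: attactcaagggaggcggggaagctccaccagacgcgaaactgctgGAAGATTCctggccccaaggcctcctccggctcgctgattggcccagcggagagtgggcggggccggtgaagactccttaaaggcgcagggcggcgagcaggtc
Hspa1b: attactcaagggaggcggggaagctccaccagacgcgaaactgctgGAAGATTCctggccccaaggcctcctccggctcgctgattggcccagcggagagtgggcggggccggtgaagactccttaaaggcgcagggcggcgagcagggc
Over the 250 bases before the start site the promoters were 98.8% identical. Counted from the start site, the 3 differences from Hspa1a to Hspa1b were C-207T, T-204C and T-2G, the last of which lies in the stretch shown.

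Hspa1b was at 24.2, 11.9 and 17.0 CPM in the WT libraries WT-1, WT-4 and WT-23 and at 3.76, 7.84 and 5.55 CPM in the rd10 libraries Rd10-3, Rd10-4 and Rd10-5. Every WT library lay above every rd10 library, although the lowest WT value was not far from the highest rd10 value. The gene was 3.10-fold lower in rd10, with a log2 fold change of -1.63 ± 0.33 (SE, n = 3 per group; edgeR adjusted p = 0.0147). Hspa1a was at 31.5, 19.02 and 17.8 CPM in WT and at 7.83, 11.9 and 9.89 CPM in rd10. Its groups were likewise separate, with WT-1 far above the other WT libraries. It was 2.30-fold lower, with a log2 fold change of -1.20 ± 0.26 (SE, n = 3; edgeR adjusted p = 0.0195). Both transcripts are rich in GC (58.95% and 58.1%), and in each group both genes were highest in the library with the rising GC trend, WT-1 or Rd10-4. With the GC trend of each library removed, the falls were -1.26 for Hspa1a and -1.72 for Hspa1b (edgeR adjusted p = 7.07e-05 and 0.000458), and without both of those libraries they were -1.06 and -1.64 (0.00555 and 0.00359). Leaving out Rd10-3 ended the call for Hspa1b (adjusted p = 0.0625) and Hspa1a (0.0922), and leaving out Rd10-5 did so too (0.0524 and 0.0631). Hspa1a shares exon sequence with Gm20481 on the other strand, and no source used here says whether counting used the strand.

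**Figure D2:**
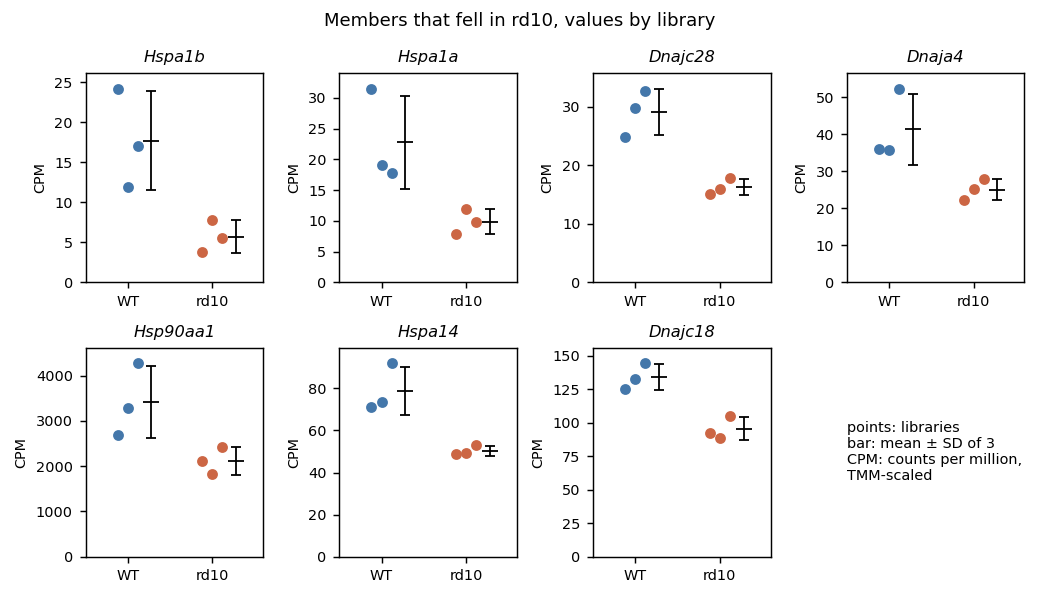
CPM in each library of the 7 members called lower in rd10, with WT points to the left, rd10 points to the right and bars for the mean ± SD of 3 libraries; every axis starts at 0. The groups are separate in each panel, from Hspa1b (11.9 CPM or more in WT, 7.84 or less in rd10) to Dnajc18 (125 or more, 105 or less).

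Hspa14 encodes an Hsp70 protein that works at the ribosome with the DNAJ protein encoded by Dnajc2. Its level was 71.2, 73.4 and 92.0 CPM in WT and 48.7, 49.1 and 53.0 CPM in rd10. The rd10 libraries were close together and all below WT. The gene fell 1.57-fold, by 0.65 ± 0.13 on the log2 scale (SE, n = 3; edgeR adjusted p = 0.0154). Without WT-4, Rd10-3 or Rd10-4 its adjusted p was 0.0641, 0.0889 and 0.0568, and with library size alone the difference was -0.41 (0.0701). It lies at chr2:3488850-3512814 (mm10, minus strand) and shares exons with Gm45902 on the same strand. Its partner Dnajc2 had a log2 fold change of -0.07 ± 0.17.

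Hspa8, the constitutive cytosolic Hsp70, did not pass the test. It was at 2050, 2026 and 2589 CPM in WT and at 2770, 2562 and 2720 CPM in rd10. The groups overlapped through WT-23, and the log2 fold change was 0.27 ± 0.13 (SE, n = 3; edgeR adjusted p = 0.206). It was called higher once the GC trend was removed, at 0.29 (edgeR adjusted p = 0.0358), and with library size alone at 0.51 (0.0323), whereas inner neuron scaling put it at 0.0018 (0.994). Counted against the inducible pair within each library, Hspa8 had 36.8, 65.5 and 74.4 counts for each count of Hspa1a plus Hspa1b in WT and 239, 130 and 176 in rd10. The ratio thus took separate ranges, and its log2 difference was 1.64 ± 0.40. The exact two-sided permutation p was 0.1, the smallest that 3 against 3 allows, and 0.133 after adjustment over the 4 ratios computed. The level of the ratio depends on whether reads that fit both Hspa1a and Hspa1b were counted, which no source used here states. Within each group the ratio was lowest in the library with the rising GC trend, WT-1 or Rd10-4. The part of that trend in the ratio was not tested.

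Among the other Hsp70 members, Hspa12a, a distant relative of Hsp70 abundant in brain, was at 338, 358 and 361 CPM in WT and 427, 402 and 429 CPM in rd10. Its groups were separate and its log2 fold change was 0.25 ± 0.10, but it did not pass the test (edgeR adjusted p = 0.13), and with inner neuron scaling it was at -0.0140. Hspa9, the mitochondrial Hsp70, had a log2 fold change of -0.31 ± 0.16 (0.233), Hspa13 of -0.02 ± 0.16 and the low-level Hspa2 of 0.03 ± 0.32. Of the Hsp110 genes, whose products exchange nucleotide on Hsp70, Hspa4l was at 307, 359 and 427 CPM in WT and 258, 225 and 296 CPM in rd10. Its groups did not overlap, and at -0.49 ± 0.16 it stayed above the threshold (edgeR adjusted p = 0.076). Hspa4 was at -0.05 ± 0.14 and Hsph1 at 0.22 ± 0.19, and Hsph1 was called higher, at 0.50, under 1 of the alternatives run, without WT-23 (edgeR adjusted p = 0.032), the WT library where it was highest (184 CPM, against 110 and 120).

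Of the 3 Hsp90 genes 1 fell and none rose, while 7.32% of all genes tested were lower and 7.12% were higher. Hsp90aa1, the inducible cytosolic form and the member with most counts in WT, lies at chr12:110690605-110702728 (mm10, minus strand). It was at 2685, 3294 and 4280 CPM in WT and at 2117, 1820 and 2435 CPM in rd10. The WT libraries were widely spread and all above rd10, and WT-1 and Rd10-4 were the lowest of their groups. It fell 1.61-fold, by 0.69 ± 0.19 on the log2 scale (SE, n = 3), and passed the test only just (edgeR adjusted p = 0.0484). The call was lost with RLE, upper quartile or library size scaling, with factors computed without photoreceptor genes, with a filter of 5 CPM, against a fold of 1.2, and without any 1 library other than WT-1 (adjusted p from 0.0608 to 0.157 for the single libraries). With the GC trend removed it was -0.60 (edgeR adjusted p = 0.000596).

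Hsp90ab1, the constitutive cytosolic form on chromosome 17 (chr17:45567775-45573271, mm10, minus strand), was at 1095, 1121 and 1091 CPM in WT and at 1439, 1438 and 1311 CPM in rd10. The WT libraries were nearly equal and every rd10 library lay above them. Its log2 fold change of 0.34 ± 0.10 did not pass the test (edgeR adjusted p = 0.0625), while DESeq2, upper quartile factors, library size alone, a filter of 5 CPM and removal of the GC trend called it higher (adjusted p from 0.00663 to 0.0472). With inner neuron scaling it was at 0.0755 (edgeR adjusted p = 0.669). Within each library Hsp90aa1 had 2.45, 2.94 and 3.92 counts for each count of Hsp90ab1 in WT and 1.47, 1.27 and 1.86 in rd10. The ranges were separate, with a log2 difference of -1.01 ± 0.25 (exact two-sided permutation p = 0.1, the smallest possible; 0.133 adjusted over 4 ratios). The ratio of Hsp90aa1 to Hspa8 was 1.31, 1.63 and 1.65 in WT and 0.764, 0.710 and 0.895 in rd10, with the same p values. These ratios need no scaling between libraries, but a GC trend of a library is not removed from them. The GC content of the transcripts was 43.74% for Hsp90aa1, 51.03% for Hsp90ab1 and 49.97% for Hspa8. Within each group both ratios were lowest in the library with the rising GC trend, WT-1 or Rd10-4. The part of that trend in the ratios was not tested.

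The Hsp90 gene of the endoplasmic reticulum, Hsp90b1, had a log2 fold change of -0.34 ± 0.15 with groups that overlapped (edgeR adjusted p = 0.175), and it was called lower with the GC trend removed (-0.27, 0.0249) and with inner neuron scaling (-0.61, 0.0442).

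**Figure D3:**
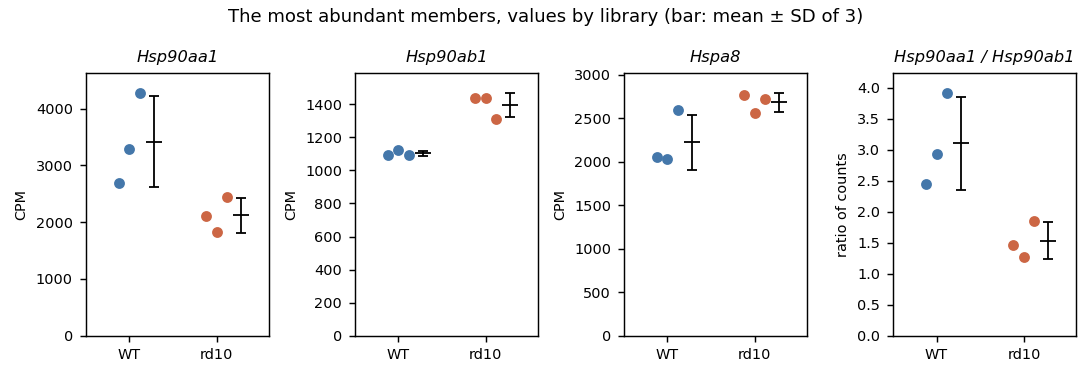
CPM in each library of Hsp90aa1, Hsp90ab1 and Hspa8, and the ratio of Hsp90aa1 to Hsp90ab1 counts, with WT to the left, rd10 to the right and bars for the mean ± SD of 3 libraries. The ratio lies between 2.45 and 3.92 in WT and between 1.27 and 1.86 in rd10.

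Hsp90aa1, Hspa8 and Hsp90ab1 together made up 50.5% to 53.8% of the counts of all members. Per kilobase of transcript, Hsp90aa1 and Hspa8 stood at 1042 and 1007 CPM in WT, Hsp90ab1 at 437, Hsp90b1 at 226 and the synaptic vesicle gene Dnajc5 at 167. In rd10 the order at the top was Hspa8 (1216 CPM per kilobase), Hsp90aa1 (647) and Hsp90ab1 (554). Such orders depend on the transcript length taken for each gene. All members together took 1.197% ± 0.171 of counts in WT and 1.28% ± 0.0825 in rd10 (mean ± SD, n = 3), which overlapped. With photoreceptor marker genes left out of the total the WT share was 1.37% and the rd10 share 1.33%.

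The mitochondrial chaperonin genes Hspd1 and Hspe1, which encode Hsp60 and its lid Hsp10, did not pass the test, at -0.24 ± 0.17 and -0.04 ± 0.14 on the log2 scale. The ratio of their counts was 4.23, 4.72 and 5.31 in WT and 3.92, 3.84 and 4.79 in rd10, with overlapping groups (exact two-sided permutation p = 0.3). They lie head to head on chromosome 1 and overlap at their first exons on opposite strands. The small heat shock group was formed by symbol alone, as Hspb followed by a number, and held 8 genes. Of these Hspb1, Hspb6, Hspb8 and Hspb11 were tested, and none of the 4 was called, where 14.4% of all genes tested were. Hspb6, the most abundant of them, was at 181, 158 and 129 CPM in WT and 163, 179 and 156 CPM in rd10, with overlapping groups and a log2 fold change of 0.09 ± 0.14. Hspb1 (Hsp27) was low, at 3.67 ± 1.88 CPM in WT and 3.75 ± 0.737 CPM in rd10 (mean ± SD, n = 3). Hspb8, which acts with the co-chaperone Bag3, had a log2 fold change of 0.35 ± 0.19 (edgeR adjusted p = 0.261). The binding partners named with the Hspb prefix were not called either. Hspbap1 had a log2 fold change of -0.28 ± 0.18. Hspbp1, which removes nucleotide from Hsp70, was at 43.5, 18.7 and 11.3 CPM in WT and 19.5, 35.7 and 17.0 CPM in rd10, highest in WT-1 and Rd10-4.

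Of the 38 DNAJ genes tested, 3 fell (7.89%, against 7.32% of all genes) and none rose. In 30 of them (78.9%, against 53.8% of all genes) the log2 fold change was below 0, with a median of -0.18 that was 0.05 with library size alone. In the DNAJA family, Dnaja4 was at 36.1, 35.7 and 52.4 CPM in WT and at 22.3, 25.2 and 27.9 CPM in rd10. Every rd10 library was below WT, and the fall was 0.72 ± 0.18 on the log2 scale, or 1.65-fold (edgeR adjusted p = 0.0365, n = 3). Its call was lost without any 1 library other than WT-1 (adjusted p from 0.0593 to 0.157), with library size alone (0.1) and against a fold of 1.2 (0.0861). Exons of Dnaja4 (chr9:54698873-54716315, mm10, plus strand) overlap Wdr61 on the other strand. The cytosolic Dnaja1 and Dnaja2 had log2 fold changes of 0.05 ± 0.18 and -0.22 ± 0.13. The mitochondrial Dnaja3 had tight and separate groups, at 67.4, 65.5 and 68.4 CPM in WT and 53.7, 56.1 and 51.4 CPM in rd10, but its difference of -0.32 ± 0.10 did not pass the test (edgeR adjusted p = 0.0791).

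None of the 9 tested DNAJB genes was called, where 14.4% of all genes tested were. Dnajb1, the classic heat-inducible Hsp40, was at 64.4, 58.7 and 67.1 CPM in WT and 53.7, 58.8 and 59.0 CPM in rd10. Its groups overlapped, with a log2 fold change of -0.15 ± 0.11. Dnajb6, which restrains aggregation of polyglutamine proteins, was at -0.19 ± 0.16, and the neuronal Dnajb2 at -0.26 ± 0.14. Dnajb9 and Dnajb11, J-domain proteins of the endoplasmic reticulum, were at 0.16 ± 0.16 and -0.30 ± 0.12 on the same scale.

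The DNAJC family is the most varied, with proteins that share little beyond the J domain. Of its 25 tested genes none rose and 2 fell, the latter close to the 7.32% of all genes tested that were lower. Dnajc28 had the smallest p of all members and was the 1 member lower at an adjusted p under 0.01, a threshold that 3.18% of all genes passed as lower. It was at 24.9, 29.9 and 32.7 CPM in WT and 15.1, 15.9 and 17.9 CPM in rd10. The groups were well separated, and the fall was 0.84 ± 0.15 on the log2 scale, or 1.79-fold (edgeR adjusted p = 0.00907, n = 3). It was lost without WT-4 (0.057) or Rd10-3 (0.0598). The gene lies on chromosome 16 (chr16:91615726-91619026, mm10, minus strand).

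Dnajc18, which encodes a J-domain protein of the endoplasmic reticulum membrane, was at 125, 133 and 144 CPM in WT and at 92.3, 88.6 and 105 CPM in rd10. Again no rd10 library reached WT. It fell 1.41-fold, by 0.49 ± 0.12 on the log2 scale (edgeR adjusted p = 0.0285, n = 3), and lost its call without WT-4, WT-23, Rd10-3 or Rd10-4 (adjusted p from 0.0646 to 0.141), against a fold of 1.2 (0.113), with library size alone (0.188) and with upper quartile factors (0.0561).

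Of the other DNAJC genes, Dnajc25 had the largest fold change in its family but low counts, at 5.07, 6.27 and 8.75 CPM in WT and 3.45, 4.35 and 2.89 CPM in rd10. Its groups were separate, with a log2 fold change of -0.92 ± 0.27 (edgeR adjusted p = 0.0561), and DESeq2 called it lower. Dnajc1, a J-domain protein of the endoplasmic reticulum membrane, had the largest positive log2 fold change of all members tested, at 0.43 ± 0.17 (edgeR adjusted p = 0.139), with 14 to 18.3 CPM in WT and 19.2 to 25.5 CPM in rd10. Dnajc5, the cysteine string protein that protects synaptic terminals, was at 573, 623 and 670 CPM in WT and 587, 529 and 580 CPM in rd10. Its groups overlapped, with -0.14 ± 0.11 on the log2 scale. Dnajc6, the neuronal auxilin that strips clathrin from vesicles, was at 299, 302 and 299 CPM in WT and 259, 260 and 270 CPM in rd10. Its groups were tight and separate, but the difference of -0.19 ± 0.09 was small and was not called (edgeR adjusted p = 0.225). Dnajc3, a co-chaperone of the endoplasmic reticulum lumen, was at -0.19 ± 0.20.

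The 12 members below the filter had at most 13 counts in any library. Dnajb8 and Dnajc5g had no counts, and the others were Dnajb3, Dnajb7, Dnajb13, Dnajc5b, Dnajc22, Hspa1l, Hspb2, Hspb3, Hspb7 and Hspb9. Dnajc22 had 1 count in each WT library and 7, 6 and 4 in the rd10 libraries. It was called higher when no filter was applied (edgeR adjusted p = 0.0478), on counts too few to size the difference.

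Removing the GC trend of each library raised the calls to 5 members higher and 17 lower, which is 8.2% and 27.9% of those tested, while 16.1% and 18.1% of all genes were called higher and lower. All 7 members that fell stayed called. Those gained on the higher side were Dnajb9, Dnajc1, Hsp90ab1, Hspa12a and Hspa8, and those gained on the lower side were Dnaja3, Dnajb2, Dnajb11, Dnajb12, Dnajc9, Dnajc13, Dnajc25, Hsp90b1, Hspa4l and Hspa9. The 2 libraries with rising trends fell in different groups. Leaving both out gave 10 members lower and none higher, with 9.92% and 9.25% of all genes. That setting kept WT-23, with its falling trend (-0.609), among the WT libraries, so it did not remove differences in GC trend between the groups. Without Rd10-3 no member was called, while 6.26% of all genes were.

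**Figure D4:**
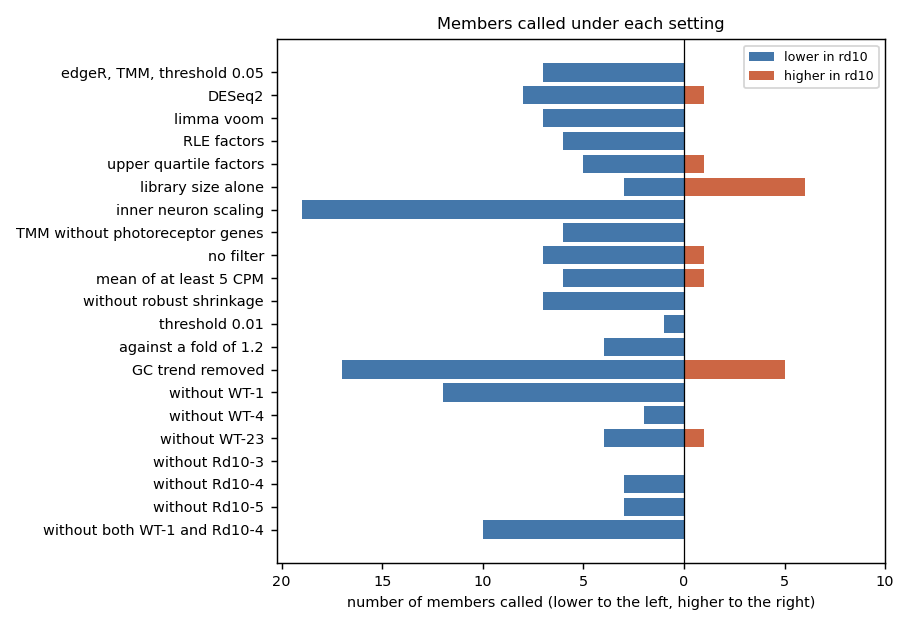
Number of members called in rd10 against WT under each setting, with members called lower drawn to the left of 0 and members called higher to the right. The bars run from no call without Rd10-3 to 22 calls with the GC trend removed.

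RefSeq promoter windows (GRCm38.p6, 250 bases before to 50 after the start site) matched 59 of the 73 members. The heat shock element of 3 units, searched on both strands as GAA, TTC and GAA or as TTC, GAA and TTC with 2 free bases between units, was present in 6 of the 76 windows of members and in 0.603% of all 32851 windows. The members with a match were Dnajb6, Hspd1, Hspe1 and Hsph1. Stretches around the matches in 3 of them are shown because they match all 3 units exactly, which the Hspa1a and Hspa1b windows above do not. The search allowed no mismatch within a unit. An element with an imperfect unit would be missed, so a window without a match may still hold an element. Capitals mark runs of the 3 or more repeated units, in Hspd1 at chr1:55088053-55088082 (minus strand), in Dnajb6 at chr5:29735846-29735875 (plus strand) and in Hsph1 at chr5:149636287-149636303 (minus strand, after the start site).
Hspd1: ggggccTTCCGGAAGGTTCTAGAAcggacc
Dnajb6: ctccgaGAATCTTCCGGAAcgctagaccag
Hsph1: agaTTCTGGAAAGTTCt
The Hspe1 match is the Hspd1 one read from the other strand, in the stretch that the gene pair shares. None of these 4 genes was called, with log2 fold changes from -0.24 (Hspd1) to 0.22 (Hsph1). The shorter form of 2 units, GAANNTTC or TTCNNGAA, which is contained in the longer one, was in 18 of the 76 windows of members and in 15.1% of all windows. Of the 7 members that fell, 5 had a window, and 3 of these held the shorter form: Hspa1a, Hspa1b and Dnaja4. Hsp90aa1 and Dnajc18 had no entry. The endoplasmic reticulum stress element (CCAAT and CCACG with 9 free bases between them, both strands) was in the windows of Dnajc3 and Hsp90b1 and in 0.119% of all windows, and the photoreceptor homeobox motif TAATCC was in that of Dnajb13 and in 7.06% of all windows. Such matches describe letters in a window and not binding.

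Partners of the chaperones were taken from 7 lists of genes outside the set, with 64 genes tested. Of these 2 rose and 2 fell, or 6.25% against 14.4% of all genes, and the median log2 fold change was -0.12. The log2 fold change was below 0 in 48 of the 64, and in 44 of the 61 members. Cryab, the alpha B crystallin and itself a small heat shock protein without the Hspb symbol, was at 49.1, 36.0 and 34.7 CPM in WT and at 101, 128 and 95.03 CPM in rd10. The groups were far apart, and it rose 2.71-fold, by 1.44 ± 0.18 on the log2 scale (edgeR adjusted p = 0.00197, n = 3). Of 15 marker genes of Müller glia, cells that also make Cryab, 11 were higher, and the list summed to 8874 to 9863 CPM in WT and 13940 to 16860 CPM in rd10. Lens markers, another source of crystallins, summed to 2.78 to 11.3 CPM in WT and 9.59 to 14.5 CPM in rd10, and the part of these cells and of reactive glia in the rises of Cryab and Bag3 was not tested. Bag3, a nucleotide exchange factor that directs clients to autophagy and pairs with Hspb8, was at 6.87, 7.31 and 6.65 CPM in WT and 14.4, 16.8 and 11.4 CPM in rd10. It rose 2.04-fold, by 1.03 ± 0.18 on the log2 scale (edgeR adjusted p = 0.00875, n = 3).

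Aipl1, the photoreceptor chaperone needed to assemble rod phosphodiesterase, was at 1040, 737 and 615 CPM in WT and at 301, 414 and 358 CPM in rd10. It fell 2.23-fold, by 1.16 ± 0.21 on the log2 scale (edgeR adjusted p = 0.00913, n = 3), and lost its call without Rd10-3 (0.0512). The 23 rod marker genes, all lower, had a median log2 fold change of -2.09. The part of the lower rod share in the fall of Aipl1 was not tested. Timm44, which holds the mitochondrial Hsp70 at the import channel of the inner membrane, was at 59.7, 45.3 and 49.3 CPM in WT and at 20.6, 25.6 and 21.3 CPM in rd10. Its groups were far apart, and it fell 2.29-fold, by 1.19 ± 0.16 on the log2 scale (edgeR adjusted p = 0.0022, n = 3). Hspa9, the Hsp70 that Timm44 holds, was not called, as given above. The heat shock factors Hsf1 and Hsf2 had log2 fold changes of -0.22 ± 0.25 and -0.31 ± 0.21 and were not called. Of the cytosolic chaperonin TRiC/CCT 8 subunits were tested, and of prefoldin 5. None was called, where 14.4% of all genes tested were, and the medians were -0.12 and -0.17. With the GC trend removed, 2 subunits of each were called lower, where 18.1% of all genes were.

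**Figure D5:**
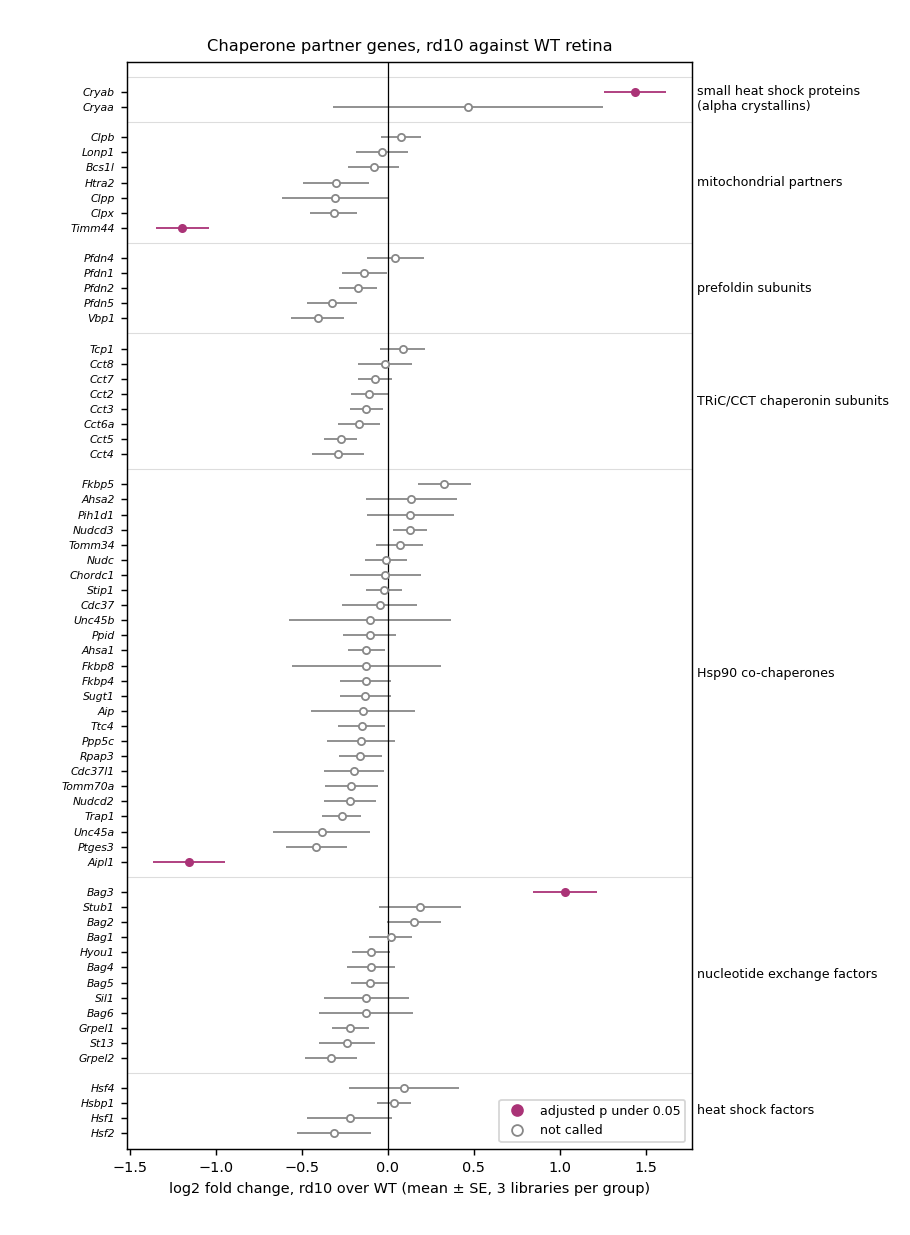
Log2 fold change of rd10 over WT for the 64 partner genes tested, by list, with the standard error from the edgeR fit over 3 libraries per group. Filled points mark the 4 genes called, Cryab and Bag3 to the right of 0 and Aipl1 and Timm44 to the left.

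The authors' deposited table holds selected genes, none with a p above 0.04995 or an absolute log2 fold change under 0.2641. None had an FPKM (fragments scaled by transcript length and depth) under 2 in both groups. Its p-values are not labelled as adjusted. Of its 3427 genes 1978 had a negative and 1449 a positive log2 fold change. The authors' deposited table listed 16 members, 26.2% of those tested here against 24.6% of all genes tested, 14 with a negative and 2 with a positive log2 fold change, the latter being Hsp90ab1 (0.34) and Dnajc1 (0.43). Its FPKM values were 2793 in WT and 1733 in rd10 for Hsp90aa1 and 387 and 489.5 for Hsp90ab1, a ratio of 7.22 and 3.54 in the authors' deposited table. On the per kilobase scale used above the same genes stood at 1042 and 647 CPM and at 437 and 554 CPM. The fold changes of the authors' deposited table differed from those of the edgeR fit by at most 0.00176 among the members, so they are no second measurement, and no source used here states the lengths behind the FPKM values. In the authors' deposited table Hspa1b had more FPKM than Hspa1a in WT (6.4 and 3.9), whereas per kilobase of the counts Hspa1a stood above Hspa1b (7.67 and 6.32 CPM).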

How the data were processed

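Bulk RNA-seq of WT and rd10 retina was analysed from whole-number gene counts, not normalized, which the authors deposited for 6 libraries. The submitters' processing notes name TopHat2 2.1.0, HTSeq, edgeR and the mm10 build without role or order, and no source used here states the annotation. Libraries were directional and made from 1 ug of total RNA, per the labels' protocols. The count columns carry the names Rd10-3, Rd10-4, Rd10-5, WT-1, WT-4 and WT-23, whose numbers differ from those of the sample titles, so each column was placed in a group by its name only. The authors also deposited a gene table that per the file headers holds p-values, log2 fold changes and a single FPKM value for each group. It was used for positions and description, and a smaller table was not used here.

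Genes were filtered with filterByExpr, scaled with TMM factors (0.902 to 1.10) and tested in R 4.3.3 with the robust quasi-likelihood fit of edgeR 4.0.16, genotype as the only term, two-sided, with Benjamini-Hochberg adjustment over all genes tested and a threshold of 0.05. CPM values are TMM-scaled. Errors of the fold changes of genes are standard errors derived from the log2 fold change and F statistic of that fit. Errors of the log2 differences of count ratios come from the variance of the log2 ratios among the 3 libraries of each group. Other errors are given as SD of 3 libraries. Alternatives were DESeq2 1.42.0, limma voom 3.58.1, other scalings, filters and thresholds, a test against a fold of 1.2, removal of a GC trend per library (spline of 6 degrees of freedom on log CPM with a prior count of 2, GC content known for 95.66% of tested genes), and each library left out. Leaving out WT-1 and Rd10-4 together and the search for the 2-unit heat shock element were added after seeing the data. Transcript lengths, GC content and overlapping exons were taken from GENCODE M21 on GRCm38, which is the mm10 assembly. Lengths and GC content were medians over the transcripts of a gene with a RefSeq entry, or over all its transcripts where none had one. Promoters came from a RefSeq table (GRCm38.p6).

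The members, gene lists, marker lists and tests were chosen with earlier results of these data known. Genes were named by rule: called members with a mean of at least 5 CPM, a set of well-known members, the 2 most abundant per family, and per partner list up to 3 called genes or the 2 most abundant, with Hsf1 and Aipl1 always. Dnaja3, Dnajb11, Dnajc1, Dnajc2, Dnajc22 and Dnajc25 fall outside that rule and were named after their values were seen, as were members listed to complete a count.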

Additional observations from a re-analysis of the deposited data

How the results depend on the processing

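The number of members called was 7 (7 lower), against 19 with inner neuron scaling, 1 at a threshold of 0.01, 4 against a fold of 1.2, 22 with the GC trend removed, and 0 (without Rd10-3) to 12 (without WT-1) with 1 library left out. For partner genes it was 4, against 14 with inner neuron scaling, 14 with the GC trend removed and 3 to 7 with 1 library left out. For all genes it was 2008, against 3043 with library size alone (81.2% of them higher, 49.3% before), 3541 with inner neuron scaling (18.0%), 2159 with upper quartile factors (63.3%), 881 at a threshold of 0.01, 1285 against a fold of 1.2, 4762 with the GC trend removed and 885 to 3214 with 1 library left out. The share of counts of the members in WT was 1.197%, and 1.37% without photoreceptor genes in the total. Where a value or the setting itself (fewer libraries, a stricter threshold) does not show the cause, the cause was not tested.

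Of 834 recomputed fold changes of 44 named genes, 714 kept direction and side of the threshold, 36 lost the call, 31 gained one and 53 changed sign, the last in genes that were not called. Log2 fold changes that changed sign were as follows. With inner neuron scaling, Hspa2 was at -0.21, Hspa12a at -0.0140, Hsph1 at -0.0612, Hspb1 at -0.20, Hspb6 at -0.16, Dnaja1 at -0.23, Dnajb9 at -0.12, Hsbp1 at -0.23 and Tcp1 at -0.18. With library size alone, Hspa4 was at 0.19, Hspa13 at 0.22, Hspe1 at 0.20, Dnajb1 at 0.0905, Dnajb6 at 0.0489, Dnajc3 at 0.0430, Dnajc5 at 0.10, Hspbp1 at 0.23, Dnaja2 at 0.0147, Dnajc6 at 0.0512 and Hsf1 at 0.0229. With upper quartile factors, Hspa4 was at 0.0479, Hspa13 at 0.0734, Hspe1 at 0.0548 and Hspbp1 at 0.0727. Hspbp1 was at 0.14 with limma voom, 0.0075 with factors computed without photoreceptor genes, 0.0115 with no filter and 0.28 without WT-1 and Rd10-4. Hspa13 was at 0.0079 with no filter, 0.0037 with a filter of 5 CPM and 0.0923 with the GC trend removed, and Dnaja1 at -0.0038 without WT-1 and Rd10-4. With 1 library left out, values ran from -0.14 to 0.45 for Hspa2, -0.15 to 0.0869 for Hspa4, -0.16 to 0.12 for Hspa13, -0.14 to 0.0511 for Hspe1, -0.25 to 0.47 for Hspb1, -0.0088 to 0.21 for Hspb6, -0.0886 to 0.27 for Dnaja1, -0.35 to 0.0456 for Dnajc3, -0.42 to 0.68 for Hspbp1, -0.0161 to 0.18 for Tcp1 and -0.35 to 0.0908 for Hsf1. No paired analysis was possible because the count columns of the groups share only 1 number and the labels tie no number to a shared animal or day. Depth limits the 12 members below the filter, whose values cannot show a difference of ordinary size.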
